A study of Homo sapiens with 4 samples.

Results

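The genes described are those of the cytosolic ribosomal proteins, the proteins that, with ribosomal RNA, make up the large and small subunits of the ribosome. They were chosen by symbol alone: probe sets annotated with exactly 1 gene symbol that starts with RPL or RPS and a digit, or is RPLP0, RPLP1, RPLP2 or RPSA, without RPS27L, RPS4Y1, RPS4Y2, the RPS6K kinases and pseudogenes. This gave 120 probe sets of 61 genes, out of 41091 probe sets with 1 symbol, which read 19775 genes. Of the 61 genes, 32 encode large-subunit proteins and 20 small-subunit proteins. Another 7 are paralogues with symbols of their own (RPL3L, RPL7L1, RPL10L, RPL22L1, RPL26L1, RPL36AL and RPL39L), and 2 are non-coding RNAs whose symbols fit the rule (RPL34-DT and RPL26L1-AS1). Of a textbook list of 79 ribosomal protein genes, 52 are covered. FAU lies outside the symbol rule, 15 of the others are read only by probe sets with several symbols, and the rest had no probe set under their symbol in the annotation used here.

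The arrays measured total RNA of CaSki cells, a human papillomavirus-positive cervical squamous carcinoma line. One group carried ZNF750 and the other GFP, in both cases as ectopic expression from a lentivirus, with 2 arrays in each group. The growth protocol of both groups gives DMEM with 0% serum, and names neither the promoter of the vectors nor whether clones or pools were used. The study asked which genes ZNF750, a zinc finger protein that promotes epidermal differentiation, regulates in squamous carcinoma.

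A human ribosome holds a single copy of nearly every ribosomal protein, so their genes are expressed at high and closely matched levels in growing cells. Most of their mRNAs begin with a cytosine followed by a run of pyrimidines, the 5′ terminal oligopyrimidine (TOP) tract, through which mTOR and the RNA-binding protein LARP1 set their translation and stability. MYC is known to raise the transcription of ribosomal protein genes and of ribosome assembly factors.

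The start sites of some of the genes that the results turn on are shown here to let the tract be read. RefSeq (GRCh38.p14) gave a start-site sequence for 53 of the 61 genes. Each line holds 20 bases before and 20 bases from the start site, 5′ to 3′ on the gene's strand, and capitals mark a C at the first transcribed base with at least 4 pyrimidines after it.
RPS6 (chr9:19380217-19380256, minus strand): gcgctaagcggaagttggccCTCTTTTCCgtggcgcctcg
RPL41 (chr12:56116613-56116652, plus strand): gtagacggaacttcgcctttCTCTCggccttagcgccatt
RPS25 (chr11:119018324-119018363, minus strand): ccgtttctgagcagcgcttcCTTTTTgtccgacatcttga
RPL27A (chr11:8682772-8682811, plus strand): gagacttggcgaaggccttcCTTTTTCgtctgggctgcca
RPS28 (chr19:8321476-8321515, plus strand): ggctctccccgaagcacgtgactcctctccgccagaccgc
RPL36A (chrX:101390991-101391030, plus strand): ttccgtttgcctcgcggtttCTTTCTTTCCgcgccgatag
RPL36AL (chr14:49620607-49620646, minus strand): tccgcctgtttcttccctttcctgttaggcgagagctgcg
RPL22 (chr1:6199576-6199615, minus strand): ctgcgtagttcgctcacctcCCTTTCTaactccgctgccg
RPL22L1 (chr3:170870176-170870215, minus strand): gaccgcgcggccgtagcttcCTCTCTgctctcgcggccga
RPL10L (chr14:46651762-46651801, minus strand): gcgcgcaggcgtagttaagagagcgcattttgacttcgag

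The tract began at an annotated start site of 35 of the 53 genes (66.0%), or 34 of 46 without the paralogues and non-coding RNAs (73.9%), against 5.14% of all 27305 genes in the RefSeq table. RPS28, RPL36AL and RPL10L are shown because no tract stood at their annotated start. RPL6, the gene with the largest fall, also had none at its start sites in that table. An annotated start can lie some bases from the start used in these cells, so a missing tract says only that these letters were not found there.

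Both arrays of a group lay close together for these genes. The median difference between replicates over the 61 genes was 0.0324 log2 units in the ZNF750-labelled arrays and 0.0326 in the GFP arrays, against 0.0929 and 0.0916 over all genes. Other genes with a mean log2 value of at least 12 were about as close, at 0.0336 in the ZNF750-labelled arrays and 0.0412 in the GFP arrays. The markers listed for CaSki, epithelial genes and CDKN2A, were present. The 8 measured lay between 10.82 and 13.09 in the ZNF750-labelled arrays and between 10.96 and 12.86 in the GFP arrays. Of these, 4 were higher and 2 lower (KRT18 and CDKN2A), where 18% of all genes were called. Their summed level was 96.81 in each ZNF750-labelled array and 95.5 to 95.6 in the GFP arrays. KRT14 had the largest difference of the 8, at 1.1. Summed fibroblast markers (6 genes) lay at 30.8 to 31.08 in the ZNF750-labelled arrays and 29.67 to 30.09 in the GFP arrays, and endothelial markers (4 genes) at 18.03 to 18.23 in the ZNF750-labelled arrays and 17.93 to 18.5 in the GFP arrays, with no gene of either list called. Blood markers (5 genes) summed to 25.5 to 25.75 in the ZNF750-labelled arrays and 24.39 to 25.42 in the GFP arrays, with HBB higher. For ACTB, the 3′ control probe set read above the 5′ one, a gap that grows with RNA breakdown, by 3.76 and 3.35 in the ZNF750-labelled arrays, against 3.03 and 2.81 in the GFP arrays. For GAPDH the same gap was 0.849 and 0.797 in the ZNF750-labelled arrays, against 0.628 and 0.614 in the GFP arrays. For both controls the gap was larger in each ZNF750-labelled array than in either GFP array. The only ZNF750 probe set read 2.23 and 2.29 in the ZNF750-labelled arrays and 2.13 and 2.37 in the GFP arrays. It does not check the labels, since where its probes lie was not analysed here. Whether any of these measures bears on the ribosomal protein values was not tested. The labels do not say how the duplicate cultures were made, so p-values measure the spread between these arrays.

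The ribosomal protein genes as a group differed little between ZNF750-labelled and GFP cells. Of the 61 genes, 3 rose and 5 fell (limma, Benjamini-Hochberg adjusted p under 0.05 over all genes), or 13.1%, against 18% of all 19775 genes tested (7.79% higher and 10.2% lower). In RNA from whole cultures, a change in a share of the cells and a smaller change in every cell cannot be told apart. The genes that rose were RPL27A, RPS25 and RPS28, and those that fell were RPL6, RPS6, RPL23A, RPL41 and RPL7. The calls of RPL27A, RPS25 and RPL23A depended on the features fitted. With all probe sets fitted together, the same probe sets did not pass (limma adjusted p = 0.0629, 0.0502 and 0.0532). The differences of all 61 ran from −0.43 to 0.25 log2 units (ZNF750 minus GFP), with a median of −0.022 and an SD over genes of 0.113. Over all genes the median was 0.036 and the SD 0.248. At an unadjusted p under 0.05, 8 ribosomal protein genes were higher (13.1%) and 14 lower (23%), against 16% and 15.8% of all genes.

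RPL6, a large-subunit protein of the solvent side, fell furthest. Its log2 values were 12.95 and 12.76 in the ZNF750-labelled arrays, against 13.36 and 13.21 in the GFP arrays. Both ZNF750-labelled values lay below both GFP values. The difference was −0.43 ± 0.0677 (limma SE, n = 2 per group), a 1.35-fold fall with a 95% interval of −0.59 to −0.27 (limma adjusted p = 0.00519). RPL6 is read by 1 probe set of the _s_at type, a suffix for probes that can match more than 1 transcript. It was the only 1 of the 61 genes to pass an adjusted p under 0.01.

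RPS6 is the small-subunit protein that S6 kinases phosphorylate when mTOR is active. It read 13.49 and 13.39 in the ZNF750-labelled arrays, against 13.71 and 13.62 in the GFP arrays. The groups did not overlap, and the difference was −0.22 ± 0.0449, or 1.17-fold lower (limma adjusted p = 0.0133). All 4 of its probe sets gave negative differences. The other 3 differed by −0.16 (adjusted p = 0.038 over all probe sets), −0.41 (adjusted p = 0.00402) and −0.35 (adjusted p = 0.16), the last from a probe set that was dim in both groups (4.75 in ZNF750-labelled and 5.1 in GFP arrays).

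The other genes that fell moved by under 1.2-fold. RPL23A, which lies at the ribosome's polypeptide exit, read 13.95 and 13.88 in the ZNF750-labelled arrays, against 14.12 and 14.02 in the GFP arrays (−0.15 ± 0.0417, limma adjusted p = 0.0419). RPL41, the smallest ribosomal protein, read 14.39 and 14.40 in the ZNF750-labelled arrays, against 14.51 and 14.54 in the GFP arrays (−0.13 ± 0.028, limma adjusted p = 0.0192). RPL7, a large-subunit protein that binds RNA, read 13.75 and 13.76 in the ZNF750-labelled arrays, against 13.88 and 13.87 in the GFP arrays (−0.12 ± 0.0287, limma adjusted p = 0.0263). In each, both ZNF750-labelled arrays lay below both GFP arrays. These 3 calls depended on the scaling of the arrays. RPL23A and RPL7 did not pass after cyclic loess (−0.09 and −0.05), a repeated quantile normalization (−0.11 and −0.08) or centring on genes with a mean log2 value of at least 8 (−0.11 and −0.07). RPL41 passed after the repeated quantile normalization (−0.16, adjusted p = 0.00474) but not after loess (−0.06) or centring (−0.08).

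Among the genes that rose, RPL27A, a large-subunit protein, moved furthest. It read 9.23 and 9.31 in the ZNF750-labelled arrays, against 8.94 and 9.09 in the GFP arrays. The groups did not overlap, and the difference was 0.25 ± 0.0691, or 1.19-fold higher (limma adjusted p = 0.0419). RPS25, a small-subunit protein that many viral internal ribosome entry sites need, read 12.43 and 12.50 in the ZNF750-labelled arrays, against 12.34 and 12.25 in the GFP arrays. Its difference was 0.17 ± 0.0448, or 1.13-fold higher (limma adjusted p = 0.0361), with the groups apart. RPL27A and RPS25 are each read by 1 probe set of the _s_at type. RPL27A is also 1 of 3 large- or small-subunit genes here with a mean log2 value under 10. The 51 ribosomal protein genes at 12 or more had a median level of 13.67. Why RPL27A read so much lower was not tested. RPS28, a small protein near the mRNA exit of the small subunit, read 13.91 and 13.86 in the ZNF750-labelled arrays and 13.76 in both GFP arrays. Its difference was 0.13 ± 0.031, or 1.1-fold higher (limma adjusted p = 0.0252). RPS28's 2 dimmer probe sets went the other way, by −0.19 and −0.21, and did not pass. Its direction therefore depends on the probe set, and the mean of its probe sets gave −0.09.

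**Figure D1:**
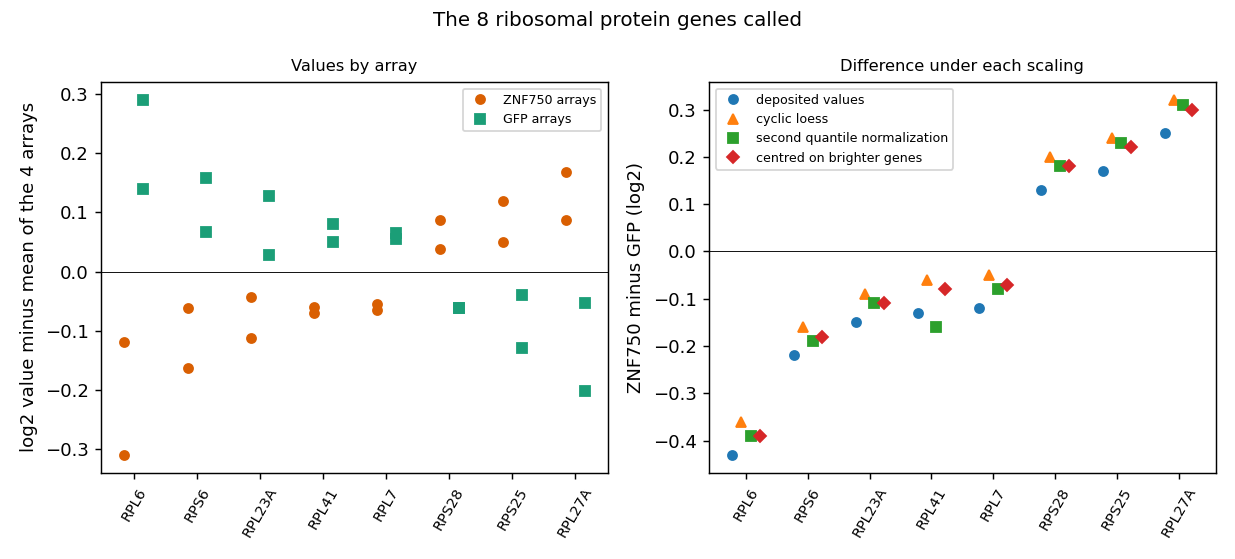
The 8 ribosomal protein genes that passed the test. The left panel plots each array's log2 value minus the gene's mean over the 4 arrays (circles ZNF750-labelled, squares GFP). The right panel plots the ZNF750 minus GFP difference (log2) from the deposited values and under 3 other scalings. No gene's groups overlap, and RPL6, RPS6, RPS28, RPS25 and RPL27A keep their sign and stay past the threshold under all 4 scalings.

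Several well-studied genes of the set did not pass. RPL11, which with RPL5 binds MDM2 when ribosome assembly is disturbed, read 13.14 and 13.06 in the ZNF750-labelled arrays, against 13.24 and 13.22 in the GFP arrays (−0.13 ± 0.0385, limma adjusted p = 0.0587). Of the genes mutated in Diamond-Blackfan anaemia, RPS19 differed by 0.06 ± 0.0302 (limma adjusted p = 0.239). RPS14, lost in the 5q deletion syndrome, differed by −0.09 ± 0.0305 (limma adjusted p = 0.0831), with 0.02 without _x_at and _s_at probe sets and 0.07 for the mean of probe sets. RPS3, which also acts in DNA repair, differed by −0.10 ± 0.0312 (limma adjusted p = 0.065). RPS4X, the X-linked form of S4, differed by 0.06 ± 0.0308 (limma adjusted p = 0.268), and RPS27 by 0.03 ± 0.0312 (limma adjusted p = 0.598). None of these 6 differences exceeded 0.13 in size in the main fit, but some passed under other settings. RPS19 passed with the mean of probe sets (0.15, limma adjusted p = 0.0409) and after cyclic loess (0.12, limma adjusted p = 0.0268). RPS4X passed after loess (0.12, limma adjusted p = 0.0304). With genes under a mean log2 value of 6 left out, RPL11, RPS3 and RPS14 passed (limma adjusted p = 0.0303, 0.0283 and 0.0384). Of proteins linked to the translation of particular mRNAs, RPL38 differed by 0.02 ± 0.0348 (limma adjusted p = 0.809) and RPL10A by −0.03 ± 0.0281 (limma adjusted p = 0.472). The other RPL38 probe sets gave 0.23 and 0.3 and did not pass (limma adjusted p = 0.145 and 0.149 over all probe sets). The mean of the RPL38 probe sets gave 0.18 (limma adjusted p = 0.123). A second RPL10A probe set read 11.98 and 12.07 in the ZNF750-labelled arrays, against 12.25 and 12.18 in the GFP arrays, and was lower by −0.19 ± 0.0465 (limma adjusted p = 0.0393 over all probe sets). RPL5, RPL10, RPL13A and RPL23 had no probe set with a single symbol and RPLP0, RPSA, RPL26 and RPS27A had none under their symbol, so they have no value here.

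The P proteins form the stalk that recruits elongation factors. RPLP1 read 13.73 and 13.80 in the ZNF750-labelled arrays, against 13.83 and 13.90 in the GFP arrays (−0.09 ± 0.0381, limma adjusted p = 0.137). RPLP2 read 7.64 and 7.65 in the ZNF750-labelled arrays, against 7.31 and 7.48 in the GFP arrays (0.25 ± 0.085, limma adjusted p = 0.086). The second RPLP2 probe set, which read 3.48 and 3.55 in the ZNF750-labelled arrays and 3.97 and 4.16 in the GFP arrays, was lower by −0.55 ± 0.124 (limma adjusted p = 0.0312 over all probe sets). The probe sets of RPLP2 thus gave opposite signs, and its direction is not settled by these arrays.

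**Figure D2:**
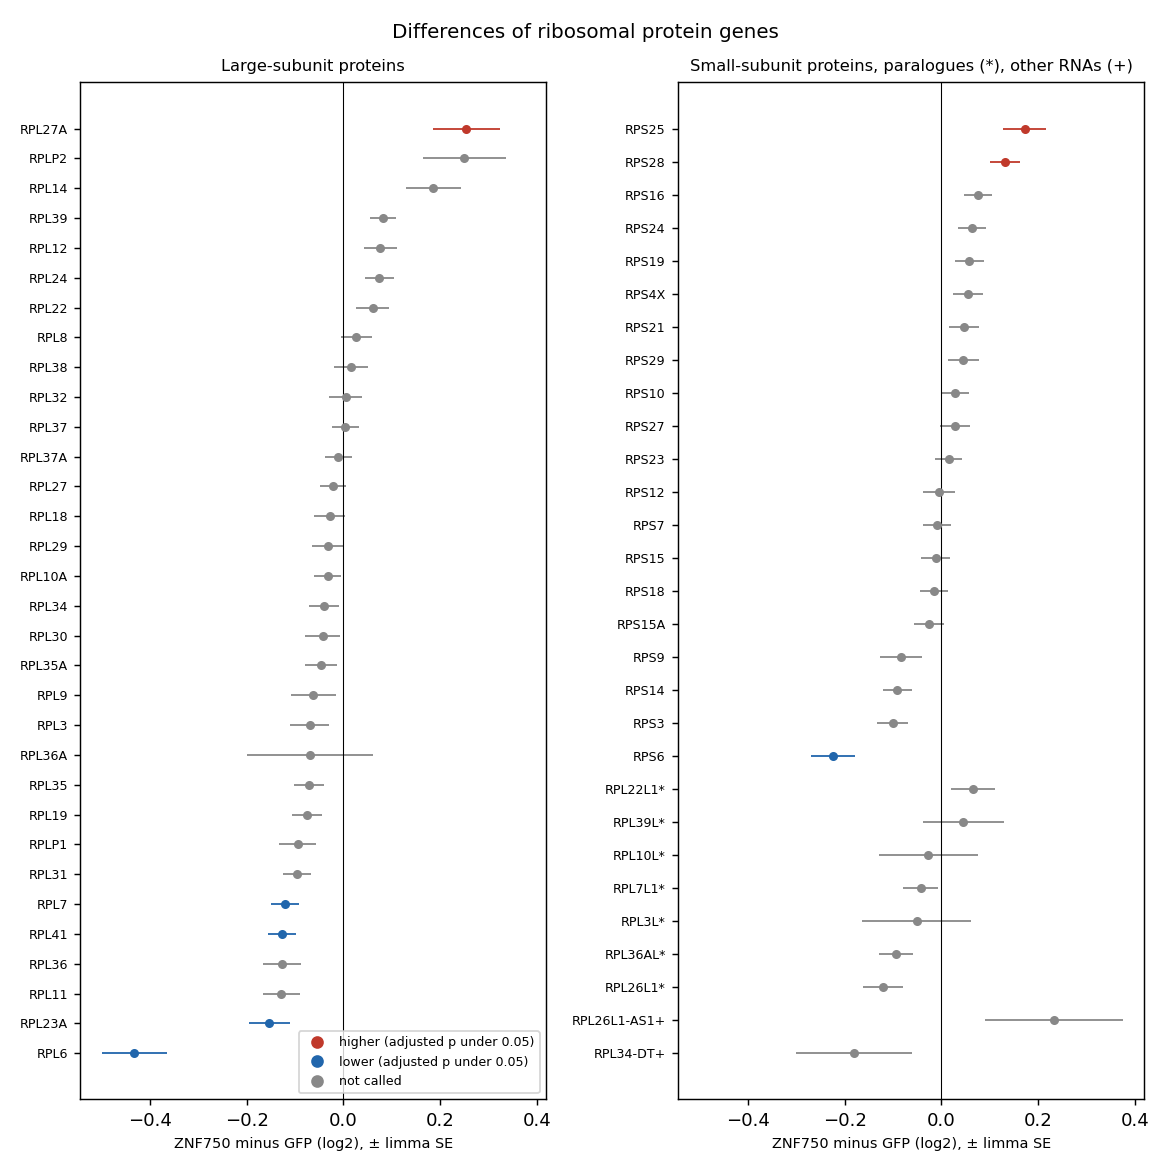
ZNF750 minus GFP difference (log2) of each of the 61 genes, with limma's standard error (n = 2 arrays per group). The left panel holds large-subunit proteins, and the right panel holds small-subunit proteins, paralogues (asterisk) and non-coding RNAs (plus sign). Red marks genes that rose, blue genes that fell and grey genes that did not pass. RPL6 at −0.43 stands farthest from 0.

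By subunit, 1 of 32 large-subunit genes rose and 4 fell, with a median difference of −0.037 and an SD over genes of 0.125. Of 20 small-subunit genes, 2 rose and 1 fell, with a median of 0.021 and an SD of 0.0872. Over both, 15.6% of large-subunit and 15% of small-subunit genes were called, near the 18% of all genes. The difference between the subunits was not tested. The groups did not overlap for 18 of the 61 genes with ZNF750 higher and for 24 with ZNF750 lower, against 33.6% and 25.2% of all genes. The remaining 19 genes overlapped.

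Of the 7 paralogues, 0 rose and 0 fell by limma, and 2 were lower at an unadjusted p under 0.05, where 15.8% of all genes were. RPL26L1, a near copy of RPL26, read 11.10 and 11.13 in the ZNF750-labelled arrays, against 11.24 and 11.23 in the GFP arrays (−0.12 ± 0.0406, limma adjusted p = 0.0836). RPL36AL read 12.38 and 12.36 in the ZNF750-labelled arrays, against 12.45 and 12.48 in the GFP arrays (−0.09 ± 0.0348, limma adjusted p = 0.109). In both, the groups were apart. Their parents gave less: RPL26 has no value here, and RPL36A differed by −0.07 ± 0.13, since its probe set is dim and its 2 ZNF750-labelled arrays read 5.81 and 5.49. RPL22L1 read 11.73 and 11.69 in the ZNF750-labelled arrays and 11.69 and 11.59 in the GFP arrays (0.07 ± 0.0452), and its parent RPL22, a large-subunit protein, differed by 0.06 ± 0.0337. Neither passed (limma adjusted p = 0.37 for RPL22L1 and 0.266 for RPL22). RPL39L differed by 0.05 ± 0.0836 (limma adjusted p = 0.761) and its parent RPL39 by 0.08 ± 0.027 (limma adjusted p = 0.0779). RPL7L1 differed by −0.04 ± 0.0358, and its parent RPL7 is given above. RPL3L, known from heart and skeletal muscle, read between 4.02 and 4.10 in the ZNF750-labelled arrays and between 4.10 and 4.13 in the GFP arrays. RPL10L, known from testis, read 5.48 and 5.52 in the ZNF750-labelled arrays and 5.53 and 5.52 in the GFP arrays. Their differences were −0.05 ± 0.113 for RPL3L and −0.03 ± 0.102 for RPL10L, and RPL3, the parent of RPL3L, differed by −0.07 ± 0.0404 (limma adjusted p = 0.285). No detection calls were used, so whether these dim paralogues were above background is not known. The non-coding RNAs did not pass either, at −0.18 ± 0.12 for RPL34-DT and 0.23 ± 0.143 for RPL26L1-AS1.

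The differences were also set beside those of other bright genes. A mean log2 value of at least 12, a bound chosen after the values were seen, held 51 of the 61 ribosomal protein genes and 307 others. Of the 51, 7 were called (13.7%), against 43% of the 307 other genes. The SD of the differences over genes was 0.1 for the 51 and 0.218 for the others. The 2 sets were not equally bright, with a median level of 13.67 for the 51 and 12.53 for the others, against a 99th percentile over all probe sets of 12.1 in both ZNF750-labelled arrays and 12.2 in both GFP arrays. At a mean log2 value of at least 13, a band added after the data were seen, the SD was 0.0993 for 46 ribosomal protein genes and 0.127 for 70 others, whose median levels were 13.81 and 13.54. There 13% of the ribosomal protein genes and 40% of the others were called. The gap in SD thus shrank as the levels were matched more closely, and how far values near the top of the range are compressed was not tested. The 95% interval of the difference lay within a 1.2-fold change either way (0.26 log2 units, also chosen after the values were seen) for 47 of the 51 (92.2%) and for 69.1% of the others. At 13 or more it did so for 93.5% of the ribosomal protein genes and 85.7% of the others, a smaller gap. Over all levels it did so for 50 of the 61 genes, against 19.4% of all genes. That last pair is not matched for level, and the median limma SE was 0.0326 for the 61 and 0.102 for all genes. When the fit was limited to genes with a mean log2 value of at least 10, more ribosomal protein genes passed: 7 were higher and 12 lower of 53 (35.8%), against 50.5% of the 2217 other genes. Over the same refit, 50.2% of all 2270 genes passed. These shares and SDs describe the arrays, and the contrast between ribosomal protein genes and others was not tested, since genes are not independent.

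**Figure D3:**
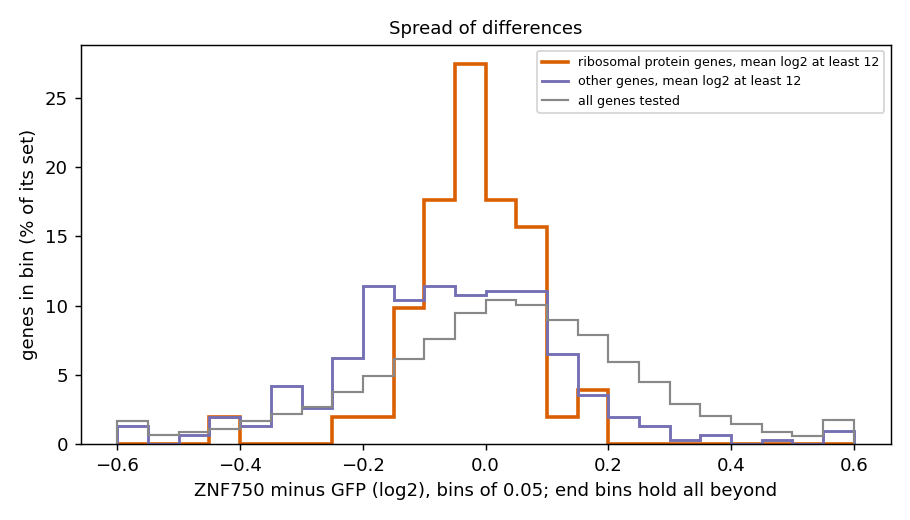
Distribution of ZNF750 minus GFP differences (log2) in bins of 0.05, as percent of each set: ribosomal protein genes with a mean log2 value of at least 12 (orange, 51 genes), other genes at that level (purple, 307 genes) and all genes tested (grey). The orange line is narrower, with an SD of 0.1 against 0.218 for the purple one, whose genes are less bright (median level 12.53 against 13.67).

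The sign of the group as a whole depended on how the arrays were scaled. The median difference of the 61 genes was −0.022 in the deposited values. It was 0.044 with cyclic loess, where 15 rose and 2 fell, against 11.5% higher and 9.07% lower of all genes. It was 0.017 with the repeated quantile normalization, where 8 rose and 3 fell, against 11.6% and 8.82%. It was 0.024 with centring on genes of a mean log2 value of at least 8, where 5 rose and 2 fell, against 13.1% and 9.64%. So the direction of the median turned under each of these 3 scalings. The shift was not particular to these genes. The median of the 307 other genes at 12 or more was −0.056 in the deposited values. It moved to 0.012 with loess, 0.003 with the repeated quantile normalization and −0.01 with centring. RPL6 and RPS6 were lower, and RPS28, RPS25 and RPL27A higher, under all 4 scalings. RPS25 lost its call with the replicate number as a block (adjusted p = 0.0671) and with the mean of probe sets (adjusted p = 0.0504). RPL14, a large-subunit protein, read 13.36 and 13.24 in the ZNF750-labelled arrays, against 13.19 and 13.04 in the GFP arrays. It missed the threshold in the deposited values (0.19 ± 0.0575, limma adjusted p = 0.0646) and passed it under each of the other 3 scalings, by 0.23 to 0.25. Its 2 other probe sets gave −0.11 and 0.02, so its direction depends on the probe set. RPL14 was named after its values were seen. None of the 8 calls remained without the intensity trend of limma's variance prior, where 7.56% of all genes were still called, or without either GFP array. Leaving out an array leaves its group with 1, assumed to vary like the other group, and calls fell over the whole array, to 0.592% of all genes without GFP replicate 1 and 0.89% without GFP replicate 2. Without ZNF750 replicate 1, RPL6 and RPS6 remained lower, and without ZNF750 replicate 2 only RPL6 did. Across the 51 genes at 12 or more, the share called stayed under that of the 307 others in every alternative run at that level.

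Probe sets of one gene often disagreed. Of the 120 probe sets, 1 was higher and 13 were lower when all 54613 probe sets were fitted together, against 4.3% higher and 7.19% lower of all. Of the 33 genes with several probe sets, 16 had differences of both signs, 0 had probe sets called in both directions, and the median range within a gene was 0.22. RPL37A, a small zinc-binding protein of the large subunit, had the widest range. Its brightest probe set read 14.34 and 14.32 in the ZNF750-labelled arrays, against 14.35 and 14.34 in the GFP arrays, a difference of −0.01. A dim one read 7.08 and 6.95 in the ZNF750-labelled arrays, against 7.80 and 7.59 in the GFP arrays, and was lower by −0.68 ± 0.1 (limma adjusted p = 0.00691). The remaining probe set gave 0.38, which did not pass (limma adjusted p = 0.163). RPS24, another gene mutated in Diamond-Blackfan anaemia, showed the same split. Its bright probe set gave 0.06, and its dim one read 8.10 and 7.95 in the ZNF750-labelled arrays, against 8.82 and 8.43 in the GFP arrays (−0.60 ± 0.126, limma adjusted p = 0.0245). The 5 probe sets of RPL22 all gave positive differences, from 0.02 to 0.19, and the 3 of RPL7 all negative ones, from −0.28 to −0.12. The 4 of RPS10 ran from −0.02 to 0.51.

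The spread differed by signal level. The 78 probe sets with a mean log2 value of at least 10 had an SD of 0.125, against 0.259 over all 3256 probe sets at that level. The 24 between 6 and 10 had an SD of 0.303, against 0.284 over all, and the 18 below 6 had an SD of 0.202, against 0.215. Ribosomal protein genes have many processed pseudogenes with near-identical sequence, and 73 of the 120 probe sets end in _s_at or _x_at, so signal from such copies cannot be told apart from that of the parent gene.

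**Figure D4:**
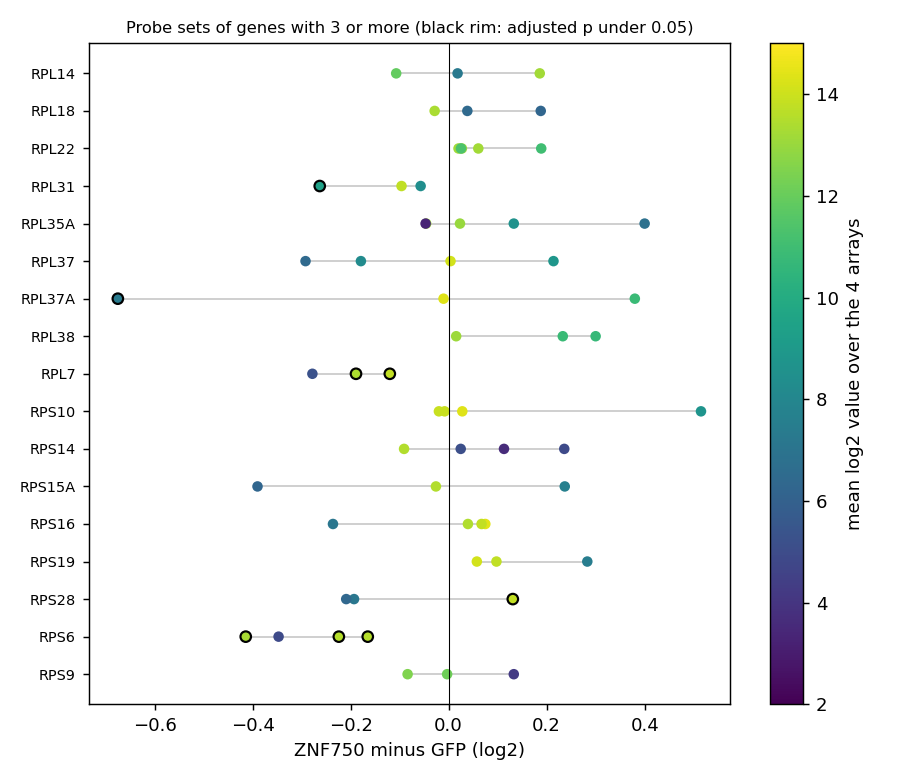
ZNF750 minus GFP difference (log2) of each probe set of the 17 genes with 3 or more probe sets, coloured by mean log2 value over the 4 arrays. A black rim marks an adjusted p under 0.05. The RPL37A probe sets run from −0.68 to 0.38, and the brightest probe sets of most genes lie near 0.

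The other genes of the pathway were taken from lists of 114 measured genes, of which 14 rose and 22 fell. These counts, and those of each list below, are to be read against the same 18% of all genes. Calls were commoner among bright genes, at 41.7% of all genes with a mean log2 value of at least 10. No share matched for level was worked out for the lists, so their counts show no excess or lack of calls. Of 20 TOP genes that encode no ribosomal protein, 2 rose and 4 fell. NACA, a subunit of the nascent polypeptide-associated complex, read 12.84 and 12.68 in the ZNF750-labelled arrays, against 13.30 and 12.99 in the GFP arrays (−0.39 ± 0.0958, limma adjusted p = 0.0293). BTF3, the other subunit of that complex, differed by −0.28 ± 0.071 (limma adjusted p = 0.0338). HNRNPA1, a splicing factor, differed by −0.33 ± 0.0517 (limma adjusted p = 0.0052). EIF3F, a subunit of the initiation factor eIF3, differed by −0.31 ± 0.0345 (limma adjusted p = 0.00157). These 4 fell with both ZNF750-labelled arrays below both GFP arrays, and TPT1 (0.19 ± 0.029, limma adjusted p = 0.00509) and EEF2, the elongation factor of translocation (0.15 ± 0.0312, limma adjusted p = 0.0168), rose. EIF3F did not pass with the mean of its probe sets (−0.13, adjusted p = 0.337) or on a probe set with neither the _x_at nor the _s_at suffix (−0.16, adjusted p = 0.5). TPT1 and EEF2 were named after their values were seen. Among 2 ribosomal proteins outside the symbol rule, FAU, whose product is cleaved to ribosomal protein S30, differed by 0.07 ± 0.0341 (limma adjusted p = 0.208) and RPS27L by 0.14 ± 0.0759 (limma adjusted p = 0.244).

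Chaperones and importers of ribosomal proteins gave 2 rises and 1 fall among 15 genes. PDCD2, a chaperone of the small-subunit protein uS5, read 8.90 and 8.86 in the ZNF750-labelled arrays, against 8.44 in both GFP arrays (0.44 ± 0.0591, limma adjusted p = 0.003). TNPO1, a nuclear importer, rose by 0.24 ± 0.036 (limma adjusted p = 0.00461), and IPO5, another importer, fell (−0.23 ± 0.052, limma adjusted p = 0.0208). The PDCD2 call was lost with the mean of its probe sets (0.07, adjusted p = 0.52). The TNPO1 direction turned with the probe set chosen, to −0.12 without _x_at and _s_at probe sets and −0.11 for the mean of probe sets. Among 39 ribosome biogenesis factors, 4 rose and 7 fell. MRTO4, a large-subunit assembly factor, read 9.67 and 9.84 in the ZNF750-labelled arrays, against 10.20 and 10.26 in the GFP arrays (−0.47 ± 0.0648, limma adjusted p = 0.00322). UTP18, of the small-subunit processome, fell (−0.40 ± 0.0614, limma adjusted p = 0.00467), as did WDR12, of the PeBoW complex (−0.36 ± 0.0686, limma adjusted p = 0.0115). With the mean of probe sets WDR12 did not pass (−0.11, adjusted p = 0.399), and MRTO4 did not on a probe set with neither the _x_at nor the _s_at suffix (−0.21, adjusted p = 0.0721). UTP14A differed by −0.38 ± 0.11 and did not pass (limma adjusted p = 0.0543).

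Of 14 genes of RNA polymerase I, which transcribes ribosomal RNA, and its factors, 1 rose and 5 fell, with a median of −0.12. TAF1A, a subunit of the promoter selectivity factor SL1, read 6.80 and 6.53 in the ZNF750-labelled arrays, against 7.62 and 7.28 in the GFP arrays (−0.78 ± 0.137, limma adjusted p = 0.00802). TAF1D, also of SL1, fell by 0.38 on the log2 scale (limma adjusted p = 0.00616), and POLR1E, a polymerase subunit, by 0.32 (limma adjusted p = 0.0299). POLR1E did not pass with the mean of its probe sets (−0.11, adjusted p = 0.539). TAF1B, another SL1 subunit, differed by −0.40 ± 0.122 and did not pass (limma adjusted p = 0.0597). RRN3, the initiation factor that joins the polymerase to SL1, rose (0.29 ± 0.0675, limma adjusted p = 0.0228) and was named after its value was seen.

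In the MYC network and the mTOR-LARP1 axis, 5 of 27 genes rose and 5 fell. DDIT4, an inhibitor of mTORC1, read 10.94 and 10.85 in the ZNF750-labelled arrays, against 10 and 9.95 in the GFP arrays (0.92 ± 0.051, limma adjusted p = 0.000142). MXI1 (0.83 ± 0.0476, limma adjusted p = 0.000158) and MXD1 (0.72 ± 0.106, limma adjusted p = 0.00407), both MYC antagonists, rose, as did DEPTOR, an mTOR-binding inhibitor (0.54 ± 0.0955, limma adjusted p = 0.00838). MYC read 10.66 and 10.72 in the ZNF750-labelled arrays, against 10.86 and 10.92 in the GFP arrays (−0.20 ± 0.0471, limma adjusted p = 0.0258). LARP1 differed by −0.13 ± 0.041 (limma adjusted p = 0.0656). The MYC call was lost after cyclic loess (−0.13, adjusted p = 0.107), the repeated quantile normalization (−0.13, adjusted p = 0.0969) and centring (−0.15, adjusted p = 0.0623). MXD3, of the same family as MXD1, fell (−0.38 ± 0.0688, limma adjusted p = 0.0091). MTOR itself fell (−0.41 ± 0.0896, limma adjusted p = 0.0185). So did MLST8 (−0.25 ± 0.0625, limma adjusted p = 0.0312) and MLXIP (−0.21 ± 0.056, limma adjusted p = 0.0399). The remaining rise was SESN2 (0.48 ± 0.0875, limma adjusted p = 0.00908). MYC, LARP1, MXD3, MTOR, MLST8, MLXIP and SESN2 were named after their values were seen. The largest difference among the 61 ribosomal protein genes was the −0.43 of RPL6. DDIT4, MXI1, MXD1 and DEPTOR were named for having the largest differences in their list, and they read lower than most ribosomal protein genes. No comparison of size between them and the ribosomal protein genes is therefore drawn. Whether their changes bear on the ribosomal protein genes was not tested, and translation was not measured.

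**Figure D5:**
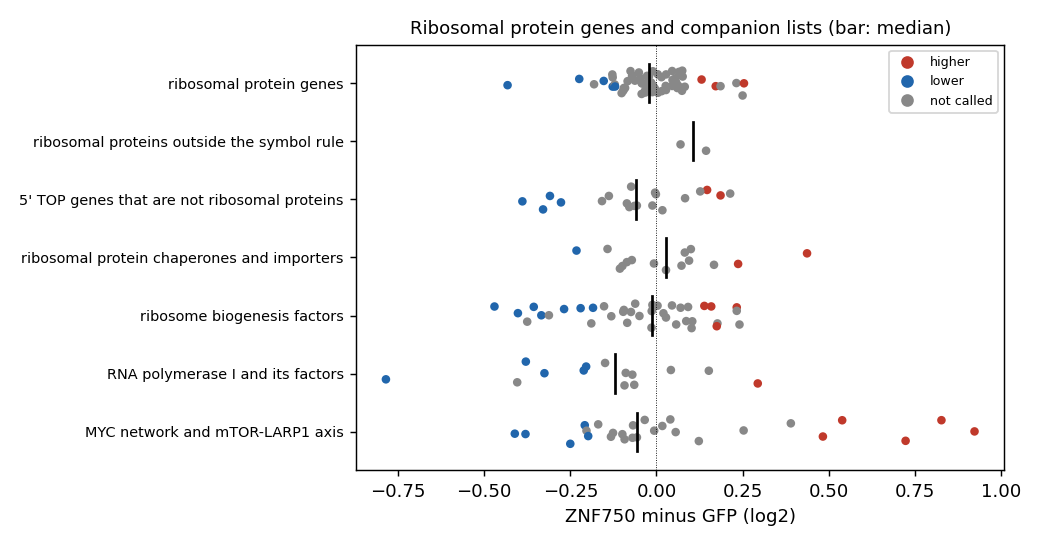
ZNF750 minus GFP difference (log2) of the 61 ribosomal protein genes and of each list of related genes. Each point is a gene, red if it rose, blue if it fell and grey if it did not pass, and the black bar is the median of the list. The ribosomal protein genes lie between −0.43 and 0.25, and DDIT4 reaches 0.92 and TAF1A −0.78.

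Sequence features of the promoters were set beside the differences. Of the 34 ribosomal protein genes with a tract, 2 rose and 2 fell, with a median difference of −0.008 and an SD over genes of 0.108. Of the 12 without one, 1 rose and 1 fell, with a median of −0.017 and an SD of 0.137. Over all genes tested, 7.79% were higher and 10.2% lower, and the 2 sets were not compared by a test. In windows from 250 bases before to 50 bases after the start, searched on both strands, the ETS factor core CCGGAAGT stood in 20.8% of the 53 matched genes, against 4.95% of all genes. The YY1 core AAGATGGC stood in 9.43%, against 3.52%, the GC box GGGCGG in 58.5%, against 48.3%, and TATAAA in 9.43%, against 14%. The E-box CACGTG, bound by MYC with MAX, stood in 7.55%, against 8.77%, and RPS28 was the only 1 of the 8 called genes whose window held it, among the 6 with a window. The motif CCNNAGGC, linked to ZNF750 binding in keratinocytes, stood in 17 of the 53 (32.1%), against 31.4% of all genes. None of these letter strings contains another, and each match is a description of the sequence, not of binding in these cells.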

How the data were processed

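The authors deposited 1 table of log2 values from Affymetrix HG-U133 Plus 2.0 arrays, with 54675 probe sets and 4 arrays. RMA was the tool named, per the submitters' processing notes (version not given in the sources used here). The method subtracts background, makes the probe distributions of the arrays equal by quantile normalization and reports a log2 value per probe set. Such values compress differences at both ends of the range, and the number of arrays limits the precision. Symbols came from the platform annotation, and all 61 genes matched RefSeq by Entrez identifier. Control probe sets (62), 1801 probe sets with several symbols and 11721 with none were left out of the gene fit. Each gene was represented by its brightest probe set with 1 symbol. limma 3.58.1 in R 4.3.3 (lmFit, eBayes with an intensity trend, 2 residual degrees of freedom) was fitted to all genes, and separately to all probe sets, after tests on simulated data. Benjamini-Hochberg adjustment covered all features, and an adjusted p under 0.05 was called. Errors with ± are limma standard errors. An exact permutation test of 2 against 2 arrays cannot go below 0.333 (two-sided) and was not used. Alternatives changed the variance prior, the filters, the probe set chosen, the scaling, the threshold, the block and the arrays used.

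Genes named with values were the called members whose groups do not overlap (up to 12 each way), all paralogues and their parents, a set of well-studied members, up to 4 genes of each related list with the largest differences, and genes with 3 or more probe sets. The members and lists were chosen with earlier results of these data known.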

Additional observations from a re-analysis of the deposited data

How the results depend on the processing

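Of the ribosomal protein genes, 3 rose and 5 fell (median −0.022). Higher and lower counts were 0 and 0 without the intensity trend (3.61% and 3.95% of all genes), 5 and 10 with dim genes left out at 6 (median −0.014; 13.7% and 20.6% of all), 7 and 12 at 10, 0 and 3 without _x_at and _s_at probe sets (median −0.041; 6.07% and 8.01% of all), 15 and 2 after cyclic loess (median 0.044), 8 and 3 after a second quantile normalization (median 0.017), 5 and 2 after centring (median 0.024), and 0 and 1 at an adjusted p under 0.01 (3.21% and 5.06% of all). The median was −0.043 with the mean of probe sets, which called 2 higher and 5 lower (5.27% and 8.09% of all), and −0.014 over the 52 textbook genes alone. Leaving out each array gave 0 higher, 0 to 2 lower and medians from −0.029 to −0.012. With either GFP array left out 0 of these genes were called, and calls fell to 0.298% higher and 0.293% lower of all genes without GFP replicate 1 and to 0.389% and 0.501% without GFP replicate 2.

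The replicate number as a block gave 3 higher and 7 lower genes (8.48% and 11.6% of all), keeping 7 of the 8 calls and losing RPS25 (adjusted p = 0.0671), and 8 higher and 11 lower probe sets. The labels do not say that numbers pair the arrays, and the deviations of the replicate 1 arrays from their group means correlated at 0.16 over all genes.

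Of the 120 probe sets, 1 rose and 13 fell. The counts were 0 and 0 without the trend, 0 and 3 without _x_at and _s_at, 22 and 7 after loess and 17 and 6 after centring. Shares over all probe sets are given only for the main fit (4.3% higher and 7.19% lower). Counts of probe sets under the other settings, the block included, thus show no excess or lack of calls. Leaving out each array gave 0 higher and 0 to 2 lower. Of the related genes, 14 rose and 22 fell. Their counts were 5 and 4 without the trend (3.61% and 3.95% of all genes) and 8 higher without _x_at and _s_at (6.07% of all). They were 24 higher after loess (11.5% of all) and 23 higher after the second quantile normalization (11.6% of all). At an adjusted p under 0.01 they were 8 and 7 (3.21% and 5.06% of all). They were 2 to 6 higher and 0 to 9 lower with each array left out.

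Values past the threshold in either setting turned sign for RPS28 (−0.19 without _x_at and _s_at, −0.09 with the mean of probe sets), RPLP2 (−0.55 without _x_at and _s_at, adjusted p = 0.0256) and TNPO1 (−0.12 and −0.11 under the same 2 settings). Uncalled values near 0, such as RPS14, RPL10A and RPL7L1, also changed sign under some settings, as did RPLP2 with the mean of probe sets (−0.15). At a level of at least 13 in place of 12, an alternative added after the data were seen, the SD of the differences was 0.0993 for ribosomal protein genes and 0.127 for others. The cause of these changes was not tested. With 2 arrays per group, 2 residual degrees of freedom limit the precision, and the calls of the brightest genes rest on the variance that limma borrows from genes of like signal.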

Other observations

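A further 68 probe sets carried a ribosomal protein symbol together with another symbol, often that of a small nucleolar RNA in an intron of the host gene, and were not used for gene values. Of these, 2 were higher and 15 lower with ZNF750 (limma adjusted p under 0.05 over all probe sets), against 4.3% higher and 7.19% lower of all probe sets, with a median difference of −0.08 and a range from −1.05 to 0.4. These probe sets cannot be assigned to 1 gene.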
